A study of Mus musculus with 16 samples.

Results

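Sulforaphane (SFN) was compared with its solvent DMSO in wild-type (WT) mIMCD3 cells after 1 h of hyperosmotic stress, across all genes that passed an expression filter. mIMCD3 cells are a line of mouse collecting duct epithelium taken from the inner medulla, the end of the kidney tubule, where cells live in a salt-rich and urea-rich interstitium. The comparison rests on 4 of the 16 libraries of the series, chosen by their labels: 2 of WT cells that received DMSO and 2 of WT cells that received 10 μM SFN. Both groups were pretreated for 5 h, and the medium was then exchanged for hyperosmotic medium (600 mOsm) for 1 h, so the stress and the change of medium are common to all 4 libraries. The other 12 libraries, again 2 per condition, came from WT cells with DMSO or SFN under isosmotic conditions or after 6 h of stress, and from Nrf2-/- cells with SFN, isosmotic or after 1 h. The labels give no length of pretreatment for the 6 h libraries. The Nrf2-/- cells were made by CRISPR/Cas9, and whether they are 1 clone is not given in the sources used here. Nrf2-/- cells with DMSO were not analysed here, and the question the 4 libraries address is which transcripts differ when cells meet hyperosmotic medium after SFN.

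Nrf2, the product of Nfe2l2, is a transcription factor that the adaptor protein Keap1 normally hands over to a ubiquitin ligase for destruction. SFN, an isothiocyanate from cruciferous vegetables, reacts with cysteines of Keap1, so that Nrf2 builds up, pairs with small Maf proteins and binds antioxidant response elements near genes for glutathione and thioredoxin metabolism, NADPH supply, detoxification and iron handling. Electrophiles of this kind are also known to set off the heat shock response through HSF1 and the integrated stress response through ATF4. Hyperosmotic medium in turn acts through NFAT5, which drives the uptake and synthesis of organic osmolytes.

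The 4 libraries held between 35689266 and 41566500 counts. Between 61.8% and 63.6% of their counts from 1 to 10 were even numbers, so that a count may not always be a separate fragment, and errors based on counts cover counting error only. The 2 libraries of a group lay close together, with a biological coefficient of variation of 0.0447 for DMSO and 0.0376 for SFN, against 0.100 and 0.115 in the isosmotic WT pairs and 0.303 in the Nrf2-/- pair at 1 h. The first principal component, with 37.4% of the variance, separated DMSO from SFN. The second, with 32.7%, separated the 2 SFN libraries from each other. Of 35 collecting duct and epithelial markers, 3 had no count in any of the 4 libraries (Aqp4, Ret and Cldn8), and Aqp2 and Avpr2, which define vasopressin-responsive principal cells, stayed under a mean of 10 counts. The keratins Krt8, Krt18 and Krt19 made up much of the marker sum, which was 3721 and 3863 CPM (counts scaled to a common library total) with DMSO and 3803 and 3782 CPM with SFN. Summed markers of proximal tubule, intercalated cells, endothelium and leukocytes stayed between 0.992 and 14.3 CPM and those of the thick limb and distal tubule between 0.419 and 0.906 CPM. The fibroblast list summed to between 1094 and 1186 CPM, nearly all of it Vim, while Col3a1, Dcn and Lum were at 0.

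By edgeR's quasi-likelihood test on the 4 libraries, with a threshold of 0.05 on the adjusted p, 809 of 16350 genes tested (4.95%) differed, 497 being higher with SFN (3.04%) and 312 lower (1.91%). Most of these differences were small. The median log2 fold change was 0.21 for the genes called higher and -0.28 for those called lower. By more than 1.2-fold, 179 genes rose and 168 fell (1.09% and 1.03% of those tested), by more than 1.5-fold 42 and 33 (0.257% and 0.202%), and by more than 2-fold 20 and 14 (0.122% and 0.0856%). Of the 12 largest rises at a mean of at least 50 counts, 9 were in genes of glutathione, heme, redox and detoxification metabolism, the others being Entpd4b, Gm7327 and Fscn2. Smaller rises were found among chaperones and ATF4 targets. The genes that fell belonged to no single list and included extracellular matrix, junction, BMP and interferon-related genes. In all 809 called genes the 2 SFN libraries lay on one side of the 2 DMSO libraries, which was also the case in 45.7% of all genes tested. The number called differed between fits. With the 12 WT libraries in 1 fit, 78 genes were higher and 23 lower (0.411% and 0.121% of 18959 tested), of which 77 and 23 were among the calls above, and with all 16 libraries 18 genes were called, all higher. Without the first SFN library 428 genes were called, and without the second 448.

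**Figure D1:**
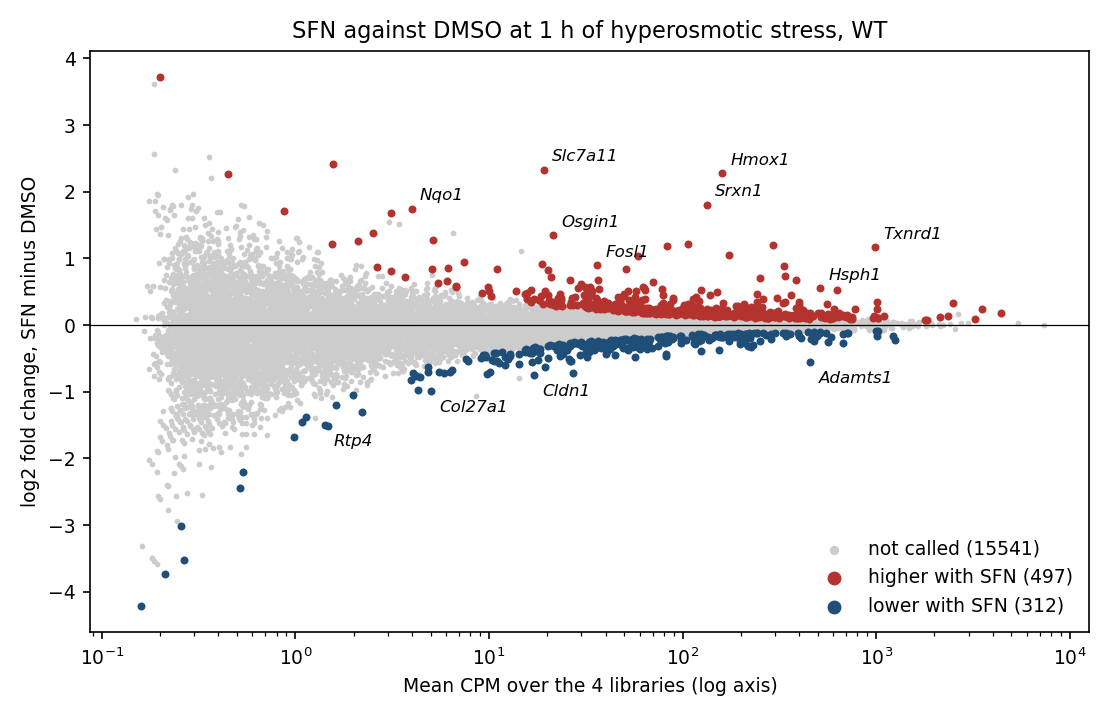
Log2 fold change of SFN against DMSO (vertical axis) against the mean CPM of the 4 libraries (horizontal log axis) for each of the 16350 genes tested, with genes called higher in red and lower in blue. A few antioxidant genes such as Hmox1 (2.28) and Srxn1 (1.81) stand far above the band of called genes, which widens towards low expression.

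The genes used as markers of the response, Slc7a11, Hmox1, Srxn1, Nqo1 and Osgin1, were among the 12 largest rises at a mean of at least 50 counts. Slc7a11 (chr3:49892526-50443614 on GRCm38, minus strand) encodes the light chain of the cystine-glutamate exchanger xCT. It measured 5.86 and 6.88 CPM with DMSO and 31.4 and 32.6 CPM with SFN, which is a log2 difference of 2.33 (standard error 0.10, edgeR adjusted p = 3.43e-17). Hmox1 (chr8:75093621-75100589, plus strand), heme oxygenase 1, which opens the heme ring and releases iron, measured 53.8 and 55.8 CPM with DMSO and 267 and 264 CPM with SFN (log2 fold change 2.28, standard error 0.040, edgeR adjusted p = 6.27e-28). For both genes the gap between the groups was many times the distance between libraries of a group. Srxn1 (chr2:152105516-152111376, plus strand), sulfiredoxin, which repairs overoxidized peroxiredoxins, stood at 58 and 60.5 CPM and at 206 and 208 CPM (log2 fold change 1.81, standard error 0.042, edgeR adjusted p = 7.42e-25). Osgin1 (chr8:119434124-119446256, plus strand), an oxidative stress-induced growth inhibitor, stood at 11.2 and 12.8 CPM and at 30.7 and 30.5 CPM (log2 fold change 1.35, standard error 0.093, edgeR adjusted p = 3.29e-12). Nqo1 (chr8:107388225-107403206, minus strand), a quinone reductase and textbook Nrf2 target, was sparsely counted in this line, with 60 and 81 counts in the DMSO libraries and 212 and 246 in the SFN libraries (log2 fold change 1.74, standard error 0.23, edgeR adjusted p = 3.85e-06). Its groups did not overlap either, as in all called genes, but its standard error was the widest of these genes.

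**Figure D2:**
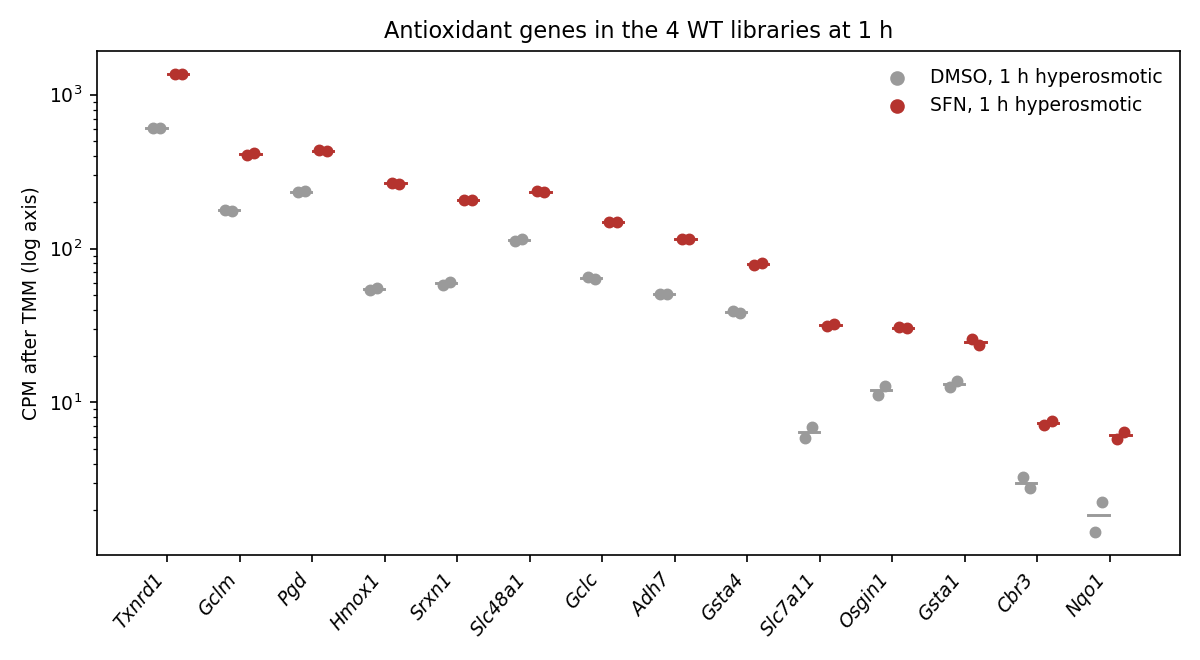
CPM after TMM normalization (log axis) of 14 antioxidant and detoxification genes in the 2 DMSO libraries (grey) and the 2 SFN libraries (red) at 1 h, with each pair's mean as a line. No gene's pairs overlap, which holds for all called genes, and Hmox1 shows a gap from 53.8 and 55.8 CPM to 267 and 264 CPM.

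Glutathione synthesis rose at both subunits of its first enzyme. Gclc, the catalytic subunit of glutamate-cysteine ligase, went from 65.7 and 63.2 to 149.8 and 148 CPM, and Gclm, its modifier subunit, from 179 and 177 to 404 and 417 CPM. The log2 fold changes, 1.21 (standard error 0.044) and 1.21 (standard error 0.032), were nearly the same. In the list of glutathione synthesis and cystine uptake, 5 of 9 tested genes rose and 0 fell. Counts for this and all further lists stand against 3.04% of all genes called higher and 1.91% called lower. The others that rose were Slc3a2 (0.15), the heavy chain that partners Slc7a11 and other amino acid carriers, and Chac1 (0.85), which cleaves glutathione and is a target of ATF4. Glutathione synthetase, Gss, the enzyme of the second step, was at 30.2 and 33.8 CPM and 37.2 and 35.2 CPM and was not called. Gclm overlaps the antisense gene Gm17494, and without a stated strand setting their reads cannot be told apart, as for Adh7 and 0610031O16Rik among the genes named later.

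Among thioredoxin-system genes, 6 of 16 rose and 1 fell. Txnrd1, cytosolic thioredoxin reductase, rose from 606 and 609 to 1359 and 1369 CPM (log2 fold change 1.17, standard error 0.025, edgeR adjusted p = 1.19e-25). Next to it and Srxn1 came Gsr (0.47), glutathione reductase, and the peroxiredoxin Prdx6 (0.25), then with small shifts Prdx1 (0.14) and Txn1 (0.11). Txnip, which binds and inhibits thioredoxin and limits glucose uptake, fell from 33.4 and 31.1 to 26.7 and 25.98 CPM (-0.29). Of 15 genes of superoxide, peroxide and metal defence, Osgin1 and catalase (Cat, 62.1 and 65.9 to 95.3 and 90.6 CPM) rose, and the metallothionein Mt1 fell from 27.4 and 28.2 to 17.8 and 23.4 CPM. In Mt1 the first SFN library was the lower of the pair, and the edgeR adjusted p reached 0.25 when single libraries were left out.

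Detoxification genes rose without a counterpart that fell. In the list of quinone, aldehyde and epoxide enzymes 6 of 24 rose: Nqo1, the carbonyl reductase Cbr3 (1.28), the alcohol and retinol dehydrogenase Adh7 (50.96 and 50.4 to 115 and 115 CPM, log2 fold change 1.18), the S-formylglutathione hydrolase Esd (253 and 255 to 416 and 429 CPM, 0.73), the epoxide hydrolase Ephx1 (0.32) and cytochrome P450 reductase, Por (0.16). When each library was left out in turn, the log2 fold change of Esd ran from 0.71 to 0.75. Among conjugation enzymes 7 of 23 rose. Gsta4, a glutathione S-transferase that clears lipid peroxidation products, went from 39.5 and 37.8 to 78.4 and 80.9 CPM (1.04), Gstm1 rose by 0.41 and Gstp1 by 0.27 on the log2 scale, and Ugdh, which makes the sugar donor for glucuronidation, by 0.32. Gsta1 (0.91), Gsta2 (1.38), Gm3776 (0.85) and Gm10639 (1.26) are close copies of each other, and how reads were divided among them is not known. Of 9 ABC exporters, Abcc1 (0.41) and Abcc4 (0.35), which pump out glutathione conjugates and other organic anions, rose.

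Genes of NADPH supply moved unevenly. The list median was -0.0033, close to the -0.0015 of all genes, yet 7 of 20 members rose and 0 fell. Pgd, the 6-phosphogluconate dehydrogenase of the pentose phosphate pathway, rose from 232 and 236 to 435 and 429.7 CPM (0.88), and G6pdx, the glucose-6-phosphate dehydrogenase that precedes it, from 116 and 118 to 162 and 158 CPM (0.45). Malic enzyme, Me1 (0.30), and the mitochondrial NAD kinase Nadk2 (0.28) followed, and the non-oxidative enzymes Taldo1 (0.15) and Tkt (0.14) rose less. Under the fit over 12 WT libraries 2 of the 7 were still called.

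In heme and iron handling 6 of 19 rose and 1 fell. Besides Hmox1 these were the heme transporter Slc48a1 (112 and 115 to 237 and 232 CPM, 1.05), the biliverdin reductase Blvrb (0.72), ferrochelatase, Fech (0.38), and the ferritin subunits Fth1 (894 and 882 to 1114 and 1132 CPM, 0.34) and Ftl1 (0.49). The ferritin light chain pseudogene Ftl2-ps, chosen after its values were seen, rose with Ftl1 (0.52), and reads may be shared between them. The transferrin receptor Tfrc, the port of iron entry, fell from 441 and 433 to 389 and 372 CPM (-0.20). Ferritin stood higher and Tfrc lower in the same libraries, without overlap between the groups, as in all called genes. Slc48a1 overlaps Hdac7 on the other strand.

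The transcripts of Nrf2 and Keap1 themselves were not called. Nfe2l2 measured 67.3 and 72.9 CPM with DMSO and 80.7 and 76.9 CPM with SFN (log2 fold change 0.17, standard error 0.053, edgeR adjusted p = 0.0587). Keap1 measured 57.4 and 58.1 CPM and 60.4 and 65.5 CPM (0.13, edgeR adjusted p = 0.252). Neither difference passed the test. In both genes the SFN libraries lay above the DMSO libraries, as they did in 22.9% of all genes tested. Of 18 regulators and partners, 5 rose and 0 fell: Sqstm1 (297 and 298 to 476 and 469 CPM, 0.67), the p62 autophagy receptor that competes with Nrf2 for Keap1, Trim16 (0.52), the small Maf protein Mafg (0.32), and the ubiquitin ligase components Syvn1 (0.23) and Rbx1 (0.15). Bach1, which competes with Nrf2 at its sites, was at 25.4 and 31.8 CPM and 32.3 and 33.2 CPM and was not called.

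Promoter sequence is shown here because the genes that rose include known targets of Nrf2 and of ATF4. Windows from 250 bases before to 50 bases after each RefSeq gene start (GRCm38.p6) were searched on both strands for the antioxidant response element core TGACNNNGC and for TTGCATCA, a composite site bound by C/EBP and ATF4 proteins. Of genes called higher with a window, 21% (82 of 390) had the core in at least 1 window. The share was 13.3% for genes called lower and 16.7% for all genes tested. A gene could have more than 1 window, and 12.4% of all single windows held the core. In the same order, the last share again being of windows, TTGCATCA was in 2.82% (11 of 390), 0.833%, 0.699% and 0.895%. The heat shock element was in 1.03% (4 of 390), 0.833%, 0.619% and 0.603%. The stretches printed next come from 5 of the genes that rose, read 5′ to 3′ along the gene's strand, with the match in capitals. They lie at chr3:122245393-122245461 (Gclm, plus strand) and chr10:82859084-82859152 (Txnrd1, plus strand), where the core is on the opposite strand, and at chr3:50443623-50443690 (Slc7a11, minus strand), chr2:119351019-119351086 (Chac1, plus strand) and chr8:111033700-111033767 (Aars, plus strand).
Gclm: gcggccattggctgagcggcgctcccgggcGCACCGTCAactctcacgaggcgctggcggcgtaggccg
Txnrd1: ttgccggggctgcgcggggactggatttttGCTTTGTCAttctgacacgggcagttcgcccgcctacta
Slc7a11: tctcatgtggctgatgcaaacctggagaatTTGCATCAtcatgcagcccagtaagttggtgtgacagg
Chac1: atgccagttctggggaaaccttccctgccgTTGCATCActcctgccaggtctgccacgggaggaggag
Aars: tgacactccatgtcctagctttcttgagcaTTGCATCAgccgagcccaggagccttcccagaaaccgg
The Slc7a11 stretch holds the same letters a second time on the opposite strand, 66 to 59 bases before the start, beside the match at 47 to 40 bases shown in capitals. Slc7a11 had no antioxidant response core in its window. A match is a run of letters and no measurement of binding, and elements outside these windows were not looked at.

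The heat shock list held the largest share of called genes among the lists of more than 20 members. Of 30 chaperones and co-chaperones tested, 17 rose (56.7%) and 0 fell, against 3.04% of all genes called higher, and the list median was 0.15. Called genes had a median of 3137.5 counts per library, against 610 for all genes tested. Many chaperones of this list and the next are counted deeply, Hspa8 at a mean of 134346, so small shifts in them are called more readily. Hsph1, an HSP110 nucleotide exchange factor, rose from 421 and 408 to 609 and 611 CPM (log2 fold change 0.56, standard error 0.028, edgeR adjusted p = 1.11e-15). Hsp90aa1, the inducible cytosolic HSP90, rose from 2211 and 2195 to 2811 and 2747 CPM (0.34), Dnaja1 from 296 and 291 to 372 and 365 CPM (0.33) and Hspa8, the constitutive HSC70, from 3231 and 3227 to 3822 and 3844 CPM (0.25). As in all called genes the groups did not overlap, and the shifts were a fraction of the step seen in Hmox1. Hspa1b rose (349.6 and 353 to 446 and 448 CPM, 0.35) while its near-identical neighbour Hspa1a, at 19.7 and 15.3 CPM and 17.3 and 15.7 CPM, overlapped between groups and was not called. The reads of these paralogs can be split in counting. In the fit over 12 WT libraries 6 of the 17 were still called.

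Endoplasmic reticulum chaperones rose by less. Of 27 genes, 13 rose and 0 fell, 26 of the 27 log2 fold changes were positive, and the median was 0.13. The largest rise was in Herpud1, which takes part in ER-associated degradation (25.2 and 27.5 to 39.3 and 32.6 CPM, 0.45), followed by Calr (0.24), calreticulin, Syvn1 (0.23), Ero1l (0.21) and Manf (0.21). The major chaperone Hspa5, BiP, went only from 1008 and 971 to 1077 and 1050 CPM (0.10). None of the 13 was called in the fit over 12 WT libraries, and when a library was left out Herpud1 reached an edgeR adjusted p of 0.069.

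Of 43 genes of the ATF4 and integrated stress response list, 17 rose (39.5%, against 3.04% of all genes) and 2 fell (4.65%, against 1.91%). The median was 0.13. Atf4 itself rose from 359.9 and 357 to 445 and 441 CPM (0.31). Chac1 rose from 7.95 and 7.72 to 13.7 and 14.5 CPM (log2 fold change 0.85, standard error 0.12, edgeR adjusted p = 2.5e-05), the growth factor Gdf15 from 179 and 205 to 311 and 313 CPM (0.70), and the pseudokinase Trib3 from 19.5 and 20.8 to 30.8 and 33.4 CPM (0.67). The groups were apart in each, as in all called genes. The bZIP transcription factors Cebpb (28.5 and 27.7 to 46.2 and 43.7 CPM, 0.68) and Atf5 (22.9 and 23.8 to 34.1 and 34.5 CPM, 0.56) rose as well. Atf5 overlaps Nup62 on the other strand. Amino acid genes of the list shifted less, among them asparagine synthetase, Asns (0.18), and the alanyl-tRNA synthetase Aars (422 and 431 to 483 and 486 CPM, 0.18). The 2 that fell were Atf3 (35.4 and 34.4 to 27.4 and 29.3 CPM, -0.30), a stress-induced repressor, and the interferon-inducible eIF2 kinase Eif2ak2 (-0.21). Of the 17, 6 were also called in the fit over 12 WT libraries.

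Amino acid transporters overlapped this list in part. Of 26 tested, 7 rose and 0 fell. Besides Slc7a11 and Slc3a2 these were the glycine transporter Slc6a9 (4.5 and 5.66 to 9.997 and 9.48 CPM, 0.94), the neutral amino acid transporter Slc1a4 (30 and 30.5 to 45.7 and 42.01 CPM, 0.54), the cationic carrier Slc7a1 (0.26), the large neutral carrier Slc7a5 (0.17) and the taurine transporter Slc6a6 (0.11). Of 19 aminoacyl-tRNA synthetases 4 rose, by 0.15 to 0.18 on the log2 scale, and none of the 4 was called in the fit over 12 WT libraries.

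**Figure D3:**
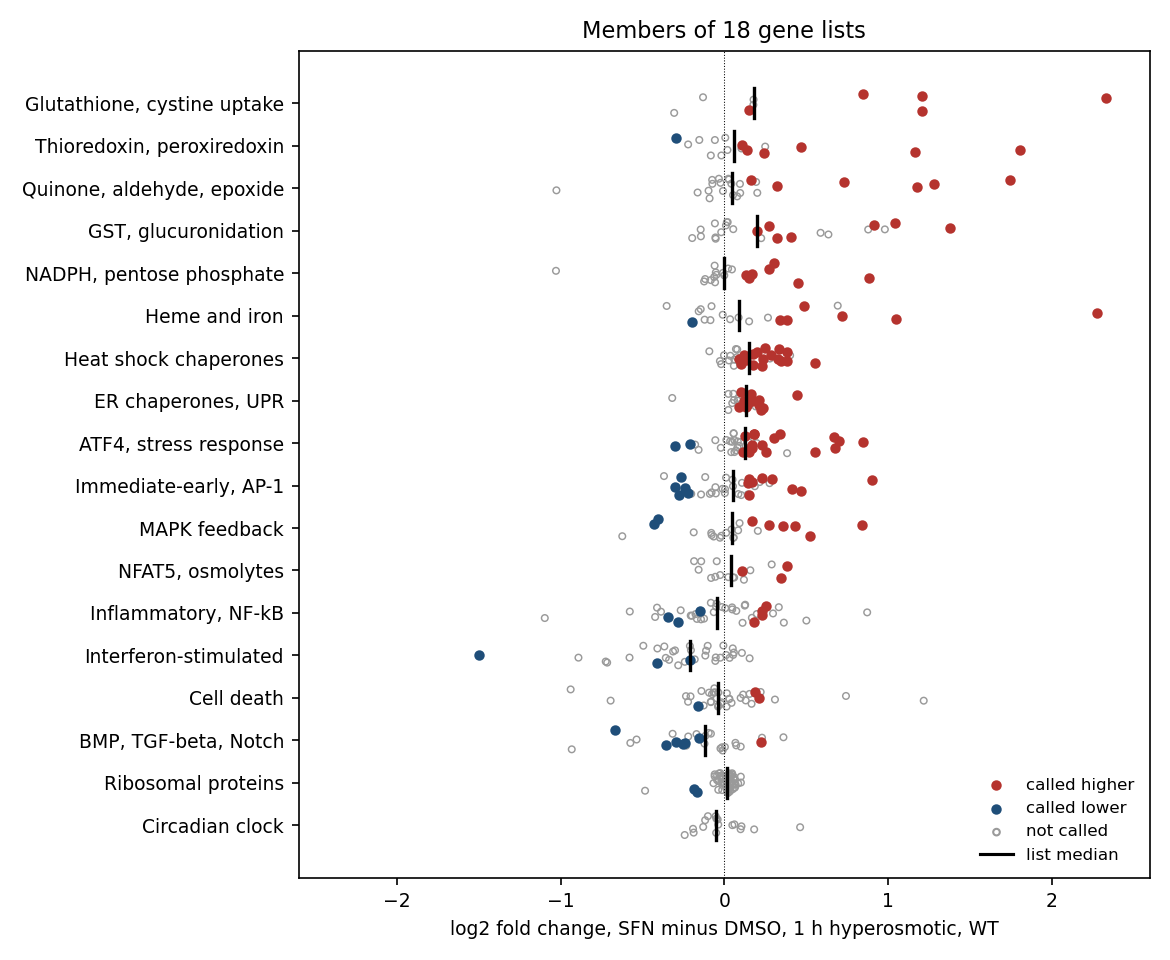
Log2 fold change of SFN against DMSO (horizontal axis) for every tested member of 18 gene lists, one list per row. Filled red and blue points were called higher or lower, open points were not called, and the black bar is the list median, which lies at 0.15 for heat shock chaperones, at -0.21 for interferon-stimulated genes and near 0 for ribosomal proteins.

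Most genes of the osmotic response proper were not called. Nfat5 measured 365 and 362 CPM with DMSO and 366 and 349.7 CPM with SFN (-0.025, edgeR adjusted p = 0.772), and the groups overlapped. Akr1b3, aldose reductase, which makes sorbitol, was at 425 and 443 CPM and 454 and 447 CPM, and Slc5a3, the inositol transporter, at 94.8 and 87.5 CPM and 83.7 and 79.9 CPM. Neither was called. Of 16 genes in the NFAT5 and osmolyte list 3 rose (18.8%, against 3.04% of all genes) and 0 fell. Those that rose were the chaperones Hspa1b and Hspa4l (0.39) and, by 0.11, Slc6a6.

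The transporters that the study names, a list chosen on these samples and so no independent evidence of a direction, had mostly few counts. Slc5a10 had 15 and 25 counts in the DMSO libraries and 33 and 46 in the SFN libraries. Slc22a4 had 65 and 45 against 82 and 85. In both genes the SFN libraries lay above the DMSO libraries, as they did in 22.9% of all genes tested, with log2 fold changes of 1.01 (standard error 0.48) and 0.67 (0.30) and edgeR adjusted p of 0.279 and 0.232. A difference of this size could not be told from replicate spread at these counts. Trpv2 (16 and 27 against 33 and 26 counts) overlapped between groups, and Trpv1 (9 and 3 against 10 and 7), Trpv3 (4 and 1 against 3 and 4), Slc38a8 (11 and 9 against 18 and 7) and Slc34a1 (4 and 0 against 6 and 2) did not pass the expression filter. Of the 7 tested, only Slc2a1, the glucose transporter GLUT1, was called, at 107 and 105 CPM with DMSO and 140.1 and 132 CPM with SFN (log2 fold change 0.36, standard error 0.042, edgeR adjusted p = 4.74e-07).

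Among 32 sodium pump, cotransporter and WNK kinase genes, Atp1b3 (0.14) and Wnk1 (0.10) rose slightly and 1 gene fell. This was Wnk4, a kinase that controls sodium chloride cotransport in the distal tubule, at 31.2 and 31.8 CPM with DMSO and 21.7 and 21.7 CPM with SFN (log2 fold change -0.54, standard error 0.079, edgeR adjusted p = 2.04e-05). The pairs were tight and far apart, and Wnk4 was also called in the fit over 12 WT libraries (edgeR adjusted p = 0.00522).

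Few of the genes that hyperosmotic stress itself changed were called between SFN and DMSO, and those it raised leaned lower with SFN. Of 2016 genes that stress raised at least 2-fold, taken as the mean of DMSO and SFN libraries at 1 h against isosmotic so that the choice did not use the SFN difference, 1693 could be tested. SFN raised 2 of them and lowered 12, that is 0.118% and 0.709%, below the 3.04% and 1.91% of all genes, but their median was 22 counts per library, against 610 for all genes tested. Of the 1693, 672 had a positive difference, against 8110 of all 16350 genes tested. Their median log2 fold change was -0.13 (-0.17 to -0.10 when each library was left out), against -0.0015 for all genes, and -0.088 for the 315 with a mean of at least 50 counts. The 2 that rose were Hspa1b and the actin bundler Fscn2 (44 and 29 to 83 and 79 counts). Among the 12 that fell were Krt15 (18.1 and 21.5 to 11.9 and 15.01 CPM, -0.55) and Krt13 (-0.70), keratins of stratified epithelia, and the vasoactive peptide Edn1 (19.2 and 16.1 to 13.2 and 14.01 CPM, -0.38). Counts of Krt15 and Krt13 were higher with stress by 7.15 and 6.92 on the log2 scale. Whether these reads come from transcripts that start at Krt15 and Krt13 was not examined. Of 747 genes that stress lowered, 344 could be tested, and 7 rose and 3 fell with SFN (2.03% and 0.872%). The 7 were Dusp5, Ptger4, Clcf1, Tsku, Kctd11, Ier2 and Junb, early-response and signalling genes, and the 3 were Leng8, Lfng and Map3k14.

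Growth factor and immediate-early genes moved in both directions. Of 35 immediate-early and AP-1 genes, 9 rose (25.7%, against 3.04% of all genes) and 5 fell (14.3%, against 1.91%). Fosl1, a Fos-family partner in AP-1, rose from 25.6 and 25 to 48.6 and 46.05 CPM (log2 fold change 0.90, standard error 0.070, edgeR adjusted p = 6.94e-11), and Fosl2 (0.41), Arc (18.6 and 20.5 to 27.1 and 27.2 CPM, 0.47) and Egr1 (0.29) rose too. The Jun family did not follow as a whole, since Junb rose by 0.15 while Jun (93.01 and 84.2 to 75.5 and 72.3 CPM, -0.26) and Jund (-0.22) fell. Among 22 genes of MAPK feedback 6 rose (27.3%) and 2 fell (9.09%). Those that rose included the EGF receptor ligands Areg (162 and 123 to 248 and 239 counts, 0.84) and Hbegf (0.27) and the phosphatases Dusp4 (52.3 and 52.2 to 73.1 and 77.2 CPM, 0.52) and Dusp5 (0.43). Dusp10 (37.8 and 37.1 to 27.9 and 28.7 CPM, -0.40) and Spred3 (-0.43) fell. Fosl1, Fosl2, Arc, Areg, Dusp4, Dusp5, Dusp10 and Hbegf were also called in the fit over 12 WT libraries.

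Inflammatory and cell death genes did not move together. Of 39 NF-kB targets 4 rose (10.3%, against 3.04% of all genes) and 3 fell (7.69%, against 1.91%), with a median of -0.046. The genes that fell were the NF-kB feedback genes Tnfaip3 (60.4 and 58.5 to 50.5 and 47.4 CPM, -0.28), Nfkbiz (-0.35) and Nfkb2 (-0.15), and those that rose were Csf1 (0.25), Lif (0.23), Tnfaip2 (0.23) and Ptgs2 (0.18), the inducible cyclooxygenase. Of 37 cell death genes 2 rose (Tnfrsf10b and Tnfrsf1a, both death receptor family genes) and 1 fell (Bok, -0.16). These shares, 5.41% and 2.70%, lie near the 3.04% and 1.91% of all genes. In interferon-stimulated genes the median was -0.21 and 26 of 33 differences were negative. Of the 33 genes, 3 were called (9.09%, against 1.91% of all genes), all lower: Rtp4 (90 and 75 to 19 and 37 counts, -1.50), Gbp3 (28.2 and 25.4 to 19.6 and 20.7 CPM, -0.41) and Eif2ak2. With each library left out in turn that median ran from -0.21 to -0.14. None of the 3 was called in the fit over 12 WT libraries.

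The 12 largest falls, at a mean of at least 50 counts, included the sense-intronic transcript Gm48025, the antisense transcript A830036E02Rik and the ribosomal protein pseudogenes Rps12-ps9 and Rps2-ps10, whose reads may come from overlapping genes or parent genes. Cldn1, the tight junction protein claudin 1, fell from 22.5 and 20.5 to 12.5 and 13.1 CPM (log2 fold change -0.75, standard error 0.10, edgeR adjusted p = 3.99e-06). Col27a1, a fibrillar collagen, fell from 264 and 253 to 138 and 112 counts (-0.99), Dhrs3, which reduces retinal to retinol, from 254 and 193 to 109 and 109 counts (-0.97), and Npr3, the natriuretic peptide clearance receptor, from 228 and 206 to 110 and 133 counts (-0.78). Each had SFN libraries below both DMSO libraries, which the rule for this set required. Klhl14 (-1.05), Gpr160 (-0.82), Zfp469 (-0.73) and Rtp4 complete the set, and of the 12 only Cldn1 and Col27a1 were called in the fit over 12 WT libraries. Chosen after their values were seen, Adamts1 (538 and 549.6 to 362 and 378 CPM, -0.55), a secreted protease, Sorbs2 (32.6 and 35.2 to 20.1 and 20.95 CPM, -0.72), an actin adaptor, Irgm1 (-0.63), an interferon-inducible GTPase, Fgfr2 (-0.53) and Itga2 (-0.54) fell at higher counts.

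Of 27 BMP, TGF-beta and Notch genes 6 fell (22.2%, against 1.91% of all genes) and 1 rose (3.70%, against 3.04%). The list median was -0.12. Id2, an inhibitor of basic helix-loop-helix factors and BMP target, fell from 269 and 275 to 228 and 232 CPM (-0.24), Tgfb2 from 347 and 274 to 171 and 203 counts (-0.67) and the Notch ligand Jag1 from 39.1 and 39.97 to 31.2 and 33.3 CPM (-0.29). Id4 (-0.35), Hes1 (-0.25) and Skil (-0.16) fell as well. With a library left out the list median ran from -0.18 to -0.052, and none of the 6 was called in the fit over 12 WT libraries.

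The remaining rises among the 12 largest were Fscn2, Entpd4b and Gm7327, the last a processed pseudogene. Entpd4b had 19 and 19 counts in the DMSO libraries and 151 and 43 in the SFN libraries, and Gm7327 65 and 51 against 236 and 116. In both, the first SFN library carried most of the difference, and their log2 fold changes ran from 1.196 to 3.07 and from 1.03 to 2.12 when single libraries were left out, and Entpd4b has a close copy in the genome. Further well-counted genes that rose, chosen after their values were seen, included Dgcr8 (34.8 and 38.6 to 67.3 and 63.8 CPM, 0.84), a microRNA processing factor that overlaps Trmt2a on the other strand, Chpf2 (14.3 and 14.9 to 26.6 and 25.1 CPM, 0.83), a chondroitin polymerizing factor, the lipoprotein receptor Lrp8 (55.2 and 55.2 to 85.5 and 86.8 CPM, 0.64), the AMP deaminase Ampd3 (22.3 and 24.9 to 35.2 and 36.7 CPM, 0.61) and the urokinase receptor Plaur (99.7 and 104 to 148 and 145 CPM, 0.53). All 5 were also called in the fit over 12 WT libraries.

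The SFN effect at 1 h was next set beside the SFN effect in libraries that share no sample with it, from 1 fit over the 12 WT libraries. Of the 497 genes called higher, 381 (76.7%) had a positive log2 fold change under isosmotic conditions and 384 (77.3%) after 6 h, against 50.4% of all genes in each case. Of the 312 called lower, 229 (73.4%) and 233 (74.7%) were negative, against 47.4% and 49.4% of all genes. Under isosmotic conditions 1570 genes were higher with SFN and 1305 lower (8.28% and 6.88% of those tested, 15.2% together), and after 6 h 36 and 10 (0.19% and 0.0527%, 0.243% together). The difference between the effect at 1 h and the isosmotic effect was called for 585 genes (3.09%), 364 in the positive (1.92%) and 221 in the negative direction (1.17%). Between 1 h and 6 h it was called for 14 genes (0.0738%), 13 positive (0.0686%) and 1 negative (0.00527%). The isosmotic counts rest on libraries with a wider spread. Without the first isosmotic DMSO library 1505 genes were called, and 1627 without the isosmotic SFN library titled replicate 1, although the deposited tables number that pair differently from the titles. Without 1 of the 1 h libraries between 311 and 327 were called. The 14 genes of the second difference became 5 to 9 when 1 of 7 of its 8 libraries was left out and 11 without the second SFN library of 6 h.

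**Figure D4:**
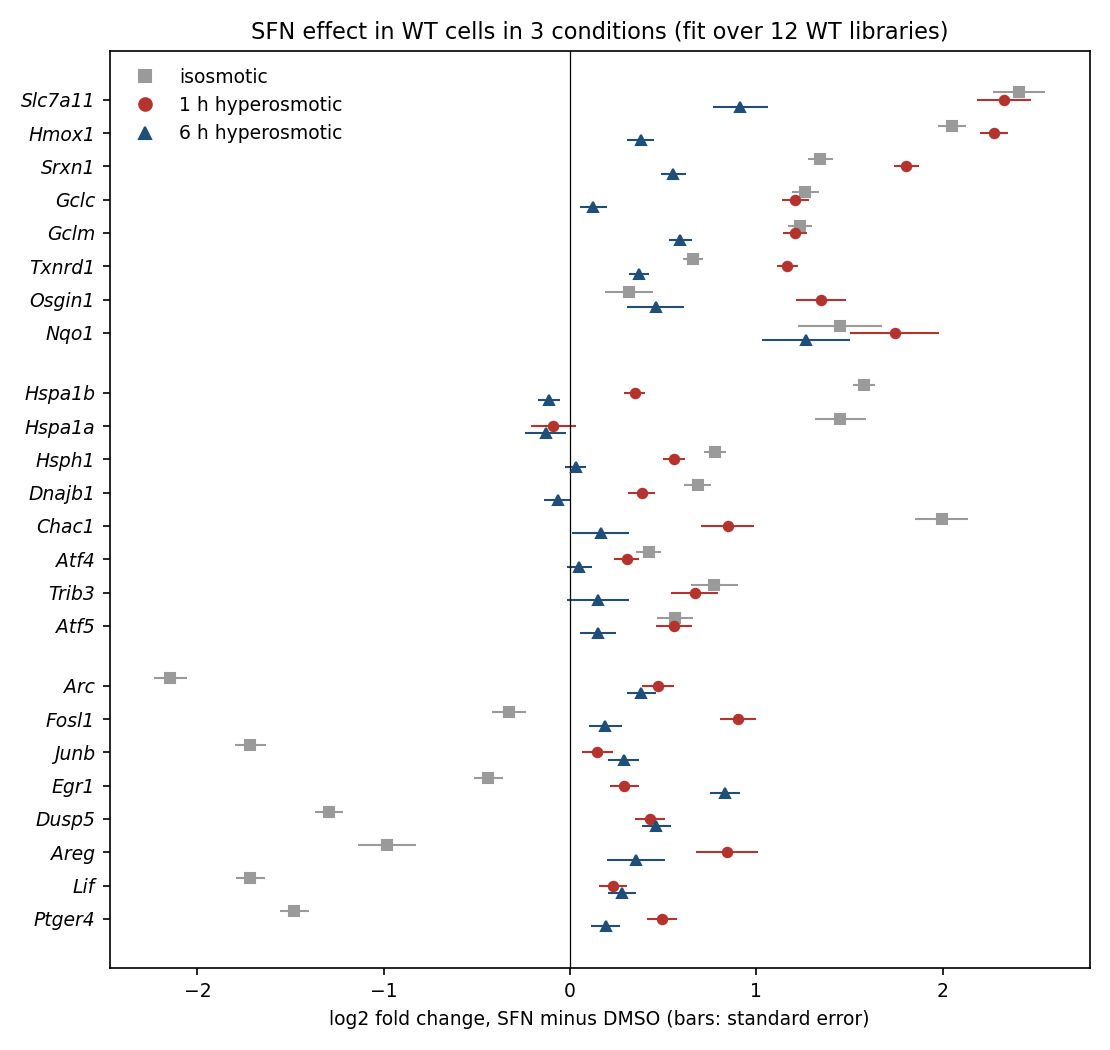
Log2 fold change of SFN against DMSO (horizontal axis, bars give the standard error) for 24 genes in WT cells under isosmotic conditions (grey squares) and after 1 h (red circles) and 6 h (blue triangles) of hyperosmotic stress. The antioxidant genes at the top are raised in all 3 conditions with their smallest effect at 6 h except for Osgin1, and the early-response genes at the bottom lie left of 0 under isosmotic conditions and right of 0 at 1 h.

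The SFN effect on 6 well-known antioxidant genes was smaller after 6 h than at 1 h. Hmox1 was raised by 2.05 (log2) under isosmotic conditions, 2.28 at 1 h and 0.38 at 6 h. Its CPM, here normalized over 16 libraries, was 71.6 and 84.4 with DMSO and 328 and 313 with SFN under isosmotic conditions, and 102 and 105 and 132 and 135 after 6 h. The effect at 1 h exceeded that at 6 h by 1.90 (standard error 0.10, edgeR adjusted p = 1.33e-09), and the like difference was 1.251 for Srxn1, 1.42 for Slc7a11, 1.08 for Gclc, 0.80 for Txnrd1 and 0.61 for Gclm, all called. Against the isosmotic effect, Srxn1 (0.46, edgeR adjusted p = 0.00736), Txnrd1 (0.51, 0.000294) and Osgin1 (1.03, 0.0022) had a larger effect at 1 h. For Osgin1 the isosmotic values were 23.8 and 22.8 CPM with DMSO and 30.01 and 27.7 CPM with SFN. For Hmox1, Slc7a11, Gclc and Gclm the difference between 1 h and isosmotic lay between -0.080 and 0.23 and was not called.

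Other antioxidant and detoxification genes were still raised at 6 h. Adh7 was raised by 1.01, 1.18 and 1.04 (isosmotic, 1 h and 6 h), Gsta4 by 0.87, 1.04 and 1.07, Pgd by 0.66, 0.88 and 0.69, and Esd by 0.63, 0.73 and 0.75. Each was called in all 3 conditions, and for none of these 4 genes was a difference between conditions called.

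The inducible HSP70 genes and Chac1 had a smaller SFN effect at 1 h than under isosmotic conditions. Of the 30 heat shock genes, the difference was called in the negative direction for 3 and in the positive for 1. The shares of all genes were 1.17% and 1.92%. The list medians were 0.19 isosmotic and 0.15 at 1 h. Hspa1b was raised by 1.58 under isosmotic conditions and by 0.35 at 1 h, a difference of -1.23 (standard error 0.083, edgeR adjusted p = 6.12e-09). Its CPM was 82.1 and 81.9 with DMSO and 239 and 247 with SFN under isosmotic conditions, and 331 and 338 and 425 and 428 at 1 h, so that the stressed DMSO libraries lay above the unstressed SFN libraries. Hspa1a showed the same order (1.45 and -0.090), and Chac1 had 1.99 and 0.85 (difference -1.15, edgeR adjusted p = 0.00149). For Hsph1 (0.78 and 0.56), Atf4 (0.42 and 0.31) and Trib3 (0.77 and 0.67) the difference was not called.

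Most early-response genes were lower with SFN under isosmotic conditions and not at 1 h. Of the 35 immediate-early and AP-1 genes 29 were called lower with SFN under isosmotic conditions, against 6.88% of all genes. Their list median was -0.78. For 27 of the 35 a difference between conditions was called in the positive direction, against 1.92% of all genes. Arc measured 64.9 and 59.6 CPM with DMSO and 15.1 and 13.01 CPM with SFN under isosmotic conditions, and 17.7 and 19.6 and 25.8 and 26.03 CPM at 1 h on the same scale. Its SFN effect went from -2.15 to 0.47, a difference of 2.62 (standard error 0.12, edgeR adjusted p = 4.44e-11). Gdf15, raised at 1 h, was at 343 and 406 CPM with DMSO and 200.03 and 213 CPM with SFN under isosmotic conditions (log2 fold change -0.85, difference 1.55, edgeR adjusted p = 1.18e-07). In the same sense 13 of 22 MAPK feedback genes and 16 of 39 NF-kB targets differed. According to the series' description the hyperosmotic medium replaced the treatment medium, and it mentions no such exchange for isosmotic cells, so osmolality, the exchange of medium and the time since SFN was present cannot be told apart.

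Levels in Nrf2-/- cells given SFN for the same time are set beside those of WT cells as values, without a test, since the pair differs in genotype as well and had a wide spread. Nfe2l2 measured 11.02 and 11.05 CPM in the 2 Nrf2-/- libraries at 1 h and 63.8 and 69.7 CPM (DMSO) and 76.9 and 73.5 CPM (SFN) in WT cells, all normalized over 16 libraries, which is the check of the labels. Srxn1 stood at 24.1 and 24.8 CPM in Nrf2-/- cells with SFN, against 54.9 and 57.9 in WT cells with DMSO and 197 and 199 with SFN. Slc48a1 stood at 40.2 and 37.8 against 106 and 109.6 and 226 and 222 CPM, and Gsta4 at 0.652 and 0.458 against 37.4 and 36.2 and 74.7 and 77.3 CPM. In these 3 genes the Nrf2-/- libraries were below even the WT DMSO libraries. Among the 42 genes called higher by over 1.5-fold, both Nrf2-/- libraries lay below both WT DMSO libraries in 22 (52.4%), against 35.3% of all genes tested, and below both WT SFN libraries in 31 (73.8%), against 34.9%. In 5 of the 42 (11.9%) they lay above both WT SFN libraries, against 27.2% of all genes. The 42 genes, like the 497 and 312 given below, were chosen by a difference between these same WT libraries. That choice alone shifts such shares, and dependence on Nrf2 was not tested by them. Slc7a11 stood at 49.3 and 102 CPM in Nrf2-/- cells, above its WT SFN values of 29.9 and 31.1 CPM, and Chac1 at 35.6 and 21.8 against 13.1 and 13.8 CPM. Of genes with a smaller rise, Atf5 stood at 105 and 56.5 against 32.5 and 32.9 CPM and Hsph1 at 784 and 825 against 580.3 and 584 CPM. Over all 497 genes called higher, the Nrf2-/- libraries lay below both WT SFN libraries in 45.5% and above them in 23.1%, against 34.9% and 27.2% of all genes. Against WT DMSO the order was the other way, with 29.4% of the 497 below and 38.8% above both libraries, against 35.3% and 27.0% of all genes. Of the 312 genes called lower, 52.9% lay below both WT DMSO libraries and 26.0% above them, and 39.7% lay above both WT SFN libraries.

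**Figure D5:**
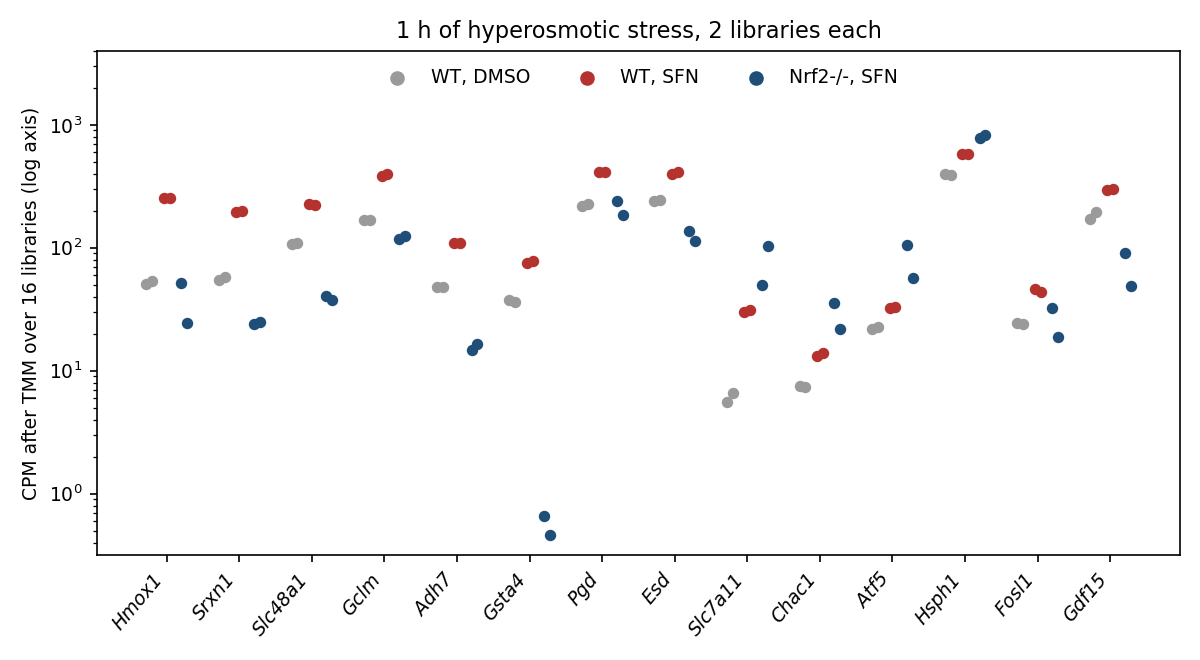
CPM after TMM normalization over 16 libraries (log axis) of 14 genes that rose with SFN at 1 h, in WT DMSO (grey), WT SFN (red) and Nrf2-/- SFN libraries (blue), 2 each. Srxn1, Slc48a1, Gclm, Adh7, Gsta4 and Esd lie below the WT DMSO pair in Nrf2-/- cells, while Slc7a11, Chac1, Atf5 and Hsph1 lie above the WT SFN pair.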

How the data were processed

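RNA-seq count tables, 1 per library, were analysed as deposited by the authors. Per the labels and the submitters' processing notes, reads were aligned to mm10 and counted per gene with featureCounts. The notes name Bowtie2 and the study's methods Hisat2, and versions, annotation and strand setting are not given in the sources used here, which matters for overlapping genes and close copies. An extract protocol in the labels speaks of primary tubular cells, whereas titles and methods name mIMCD3. The study calls the 2 libraries of a condition biological replicates, so p-values measure the spread between 2 such samples, and a 2 against 2 exact permutation test could not go below p = 0.333.

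Counts of the 4 libraries were tested with edgeR 4.0.16 (R 4.3.3; filterByExpr, TMM, robust quasi-likelihood, Benjamini-Hochberg adjustment), called at an adjusted p under 0.05. CPM values are after TMM. Differences between conditions were interaction terms in 1 fit over the 12 WT libraries. On simulated counts for 16243 genes shaped like the 4 libraries, 64% of 1.25-fold, 94% of 1.5-fold and 100% of 2-fold and 0.5-fold changes were recovered, with 4 unchanged genes called. For the interaction at 1 h against isosmotic (17456 genes), 22% of 1.5-fold and 88% of 2-fold changes were recovered. In both simulations the changes were set only in genes with a mean of at least 50 counts, and all genes had the same spread. Recovery at lower counts or wider spread was not tested. The symbols of 97.8% of tested genes matched GENCODE M21, which gave the coordinates.

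Named genes were 5 markers, the 12 largest rises and falls at a mean of at least 50 counts without overlap between groups, genes the study is about, list members by p (a few genes are not reported here), and the 5 interaction genes per direction with the smallest p. The comparison, its members and all lists were chosen with earlier results of these data known. Alternatives were DESeq2 1.42.0, other size factors, filters and libraries, a fold threshold, GC content and length offsets, a replicate block and leaving out each library.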

Additional observations from a re-analysis of the deposited data

Results flagged for a closer look

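Differences in the SFN effect between conditions were interaction terms in the fit over 12 WT libraries. The 5 genes per direction and contrast with the smallest p were picked. Of these 20 genes 16 were called, a number largely set by that choice. Over all genes tested, a difference was called for 3.09% against isosmotic conditions and for 0.0738% against 6 h. Against isosmotic conditions the effect at 1 h was higher by 2.62 on the log2 scale for Arc, 2.14 for the tight junction gene Cldn4, 1.94 for the cytokine Lif, 1.83 for the clock repressor Bhlhe40 and 1.63 for F3, tissue factor. In all 5 SFN lowered the gene under isosmotic conditions, with effects of -2.15, -2.12, -1.72, -1.93 and -1.54, against 0.47, 0.028, 0.23, -0.10 and 0.093 at 1 h. The difference was -1.54 for Hspa1a, -1.24 for Gbp3, -1.23 for Hspa1b, -0.87 for Ccdc117 and -0.86 for Rsrp1, and SFN had raised these 5 under isosmotic conditions, by 1.45, 0.83, 1.58, 1.08 and 0.89. Of genes the report names for other reasons, the difference was 0.46 for Srxn1, 0.51 for Txnrd1, 1.03 for Osgin1, -1.15 for Chac1 and 1.55 for Gdf15. The series' account of the RNA samples mentions no exchange of medium for isosmotic cells, and its part in these differences was not tested.

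Between 1 h and 6 h, the effect was larger at 1 h by 1.90 for Hmox1, 1.42 for Slc7a11, 1.251 for Srxn1, 1.08 for Gclc, 0.80 for Txnrd1 and 0.61 for Gclm. Rgs16, a regulator of G protein signalling, had a difference of -0.91 (edgeR adjusted p = 0.024), with SFN effects of -0.41 at 1 h and 0.50 at 6 h. How long SFN was present before and during the 6 h of stress is not given by the labels. Groups of 2 libraries were too small for a search for outlying samples.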

How the results depend on the processing

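The number of genes called between SFN and DMSO at 1 h, 809, became 613 with DESeq2, 801 with RLE size factors, 879 without a filter, 901 with at least 10 counts in every library and 982 with GC content and length offsets. It fell to 101 in the fit over 12 WT libraries, 18 over 16 libraries and 61 when edgeR tested against a 1.2-fold change, and ran from 428 to 930 when each library was left out. A replicate block gave 1046 genes, and 937 with the GC and length offsets. Deviations of same-numbered 1 h libraries correlated at -0.053 over 12153 genes, so no pairing by replicate number was seen across genes. With 1 such deviation per group, a batch shared by part of the genes was not tested. Of 176 named genes called by edgeR, none changed direction where an alternative gave it a value, which DESeq2 did for 151. The alternatives reuse the libraries on which these genes were called, so a kept direction is little independent evidence. The 1.2-fold test was not applied to single genes. The number no longer called was 108 over 12 WT libraries, 158 over 16, 16 with DESeq2 and 18 to 60 when each library was left out.

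The 585 genes whose SFN effect differed between 1 h and isosmotic conditions became 1156 without a filter and 109 over 16 libraries, 311 to 1627 when each library was left out and 503 with the block. The 14 genes that differed between 1 h and 6 h became 34 with DESeq2, 39 without a filter, 78 in a fit of the 8 libraries compared, 2 over 16 libraries, 5 to 11 when each library was left out and 13 with the block. The spread of the Nrf2-/- pair enters the 16-library fits. The other causes were not tested. Of the stress-raised genes, SFN raised 2 and lowered 12. In the fit over 12 WT libraries it raised 1 and lowered 0, and among genes raised at least 4-fold it raised 1 and lowered 10. Of the stress-lowered genes, SFN raised 7 and lowered 3, which became 3 and 1 in the fit over 12 WT libraries and 0 and 0 among genes lowered at least 4-fold. Low-count genes are limited by depth.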

Other observations

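Further lists are given against a share of 3.04% of all genes called higher and 1.91% called lower after 1 h. Of 39 proteasome subunits Psmd11 (173 and 175 to 209 and 217 CPM, log2 fold change 0.29) and Psmd7 (0.16) rose and 0 fell, with a list median of 0.018. Of 29 autophagy genes 3 rose, the cargo receptor Sqstm1, Gabarapl1 (0.36), an ATG8 family protein, and Tfe3 (0.28), a lysosomal transcription factor. Of 30 p53 targets 3 rose, Gdf15, Plk3 (24.7 and 25.6 to 36.1 and 38.8 CPM, 0.57), a stress-responsive kinase, and Tnfrsf10b (0.21).

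In metabolism, Hmgcs1, an early enzyme of cholesterol synthesis, was the only called gene of 28 in its list, at 53.98 and 56.6 CPM with DMSO and 42.8 and 44.5 CPM with SFN (-0.34). Of 34 lipid genes, Ppard (0.31) and Fasn (0.11) rose, and the desaturase Scd2 (-0.28) and Angptl4 (9.91 and 8.58 to 5.85 and 6.91 CPM, -0.54), an inhibitor of lipoprotein lipase, fell. Of 30 genes of glucose uptake and glycolysis, Slc2a1, Pkm (0.13) and Gpi1 (0.11) rose and Txnip fell.

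Structural and growth genes shifted by small amounts. Of 33 actin and SRF genes 8 (24.2%) rose by 0.08 to 0.21 on the log2 scale and 0 fell, and none was called in the fit over 12 WT libraries. They included vinculin, Vcl (279 and 296 to 341 and 322 CPM, 0.21), and Fhl2 (0.20). Of 22 YAP targets 3 rose and 2 fell. In the cell cycle lists, 2 of 45 S phase and 4 of 41 mitotic genes rose, with medians of 0.024 and 0.027, and 0 fell. Of 31 splicing regulators Srsf6 (0.15) rose and 5 (16.1%) fell, led by the kinase Clk3 (26.1 and 24.6 to 20.6 and 21.1 CPM, -0.28) and Hnrnph1 (-0.25). Of 67 ribosomal proteins Rpl3 (-0.17) and Rpl10a (-0.18) fell.

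The 37 genes encoded by the mitochondrial genome had 0 counts in the 4 libraries.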
